A study of Mus musculus with 76 samples.

Results

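Krüppel-like factors (KLFs) are zinc-finger transcription factors, and 8 of them with described roles in circadian biology were followed here: Klf2, Klf4, Klf6, Klf9, Klf10, Klf11, Klf13 and Klf15. They were taken from the deposited count table by gene name, as 8 of 38129 entries, and all 8 passed the filter on low counts in each tissue. The study sequenced RNA of mouse liver, heart and suprachiasmatic nucleus (SCN, the hypothalamic pacemaker) in 76 libraries. The samples fall into 24 groups, made by tissue, feeding (ad libitum, AL, or time-restricted feeding, TRF), genotype (wild type, WT, or the line labelled Bmal1-VIPKO, KO below) and circadian time (CT0 or CT12). There were 3 libraries in 20 groups and 4 in the TRF KO groups of liver and heart. Per the series title the KO is a central loss of Bmal1 (gene Arntl) tied to cells that make the neuropeptide VIP, so liver and heart of KO mice still carry Bmal1. The Cre driver, the hours of food access, the lighting, and the age and sex of the mice are not given in the sources used here. No label says whether libraries of a group came from separate mice, so the p-values measure the spread between these libraries.

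All KLFs bind GC-rich or CACCC elements through 3 C-terminal zinc fingers, and they differ in the partners that their N-terminal parts recruit. Klf2 and Klf4 are known for keeping endothelial cells quiescent, and Klf4 also for pluripotency. Klf6 is an early response gene in injured liver. Klf9 and Klf13 are close relatives, and Klf9 is a classical target of the glucocorticoid receptor. Klf10 and Klf11 were first described as genes induced by transforming growth factor beta and recruit the Sin3 corepressor, and Klf10 is a clock-controlled regulator of glucose metabolism in liver. Klf15 drives rhythmic amino acid breakdown in liver and, in heart, the rhythm of the potassium channel subunit Kcnip2.

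Total counts ranged from 13502014 to 19018983 per library. In SCN, Arntl lay between 18.2 and 27.5 CPM (counts scaled to library size) in WT and between 18.3 and 29.2 in KO, and Vip lay between 0.504 and 17.7 CPM in WT and between 0 and 1.28 in KO. Whether the deleted part of Arntl holds counted reads is not given, so Arntl does not check the labels. 3 sets of libraries stood apart. In liver and heart, each AL group holds 1 library with a 3-digit number that lay closer to 1 other library of its group than other replicates did. Its chi-square per gene to that library was 3.31 to 5.51 in liver and 1.75 to 2.96 in heart, against 12.7 to 42.5 and 6.62 to 269.7 between the other AL replicates, where sampling noise gives 1. In 42.8% to 53.3% of liver genes and 40.5% to 54.1% of heart genes it was also the middle value of the group. An AL group may therefore hold fewer than 3 independent libraries, and the AL calls below are also given without them. The 3 heart AL WT CT12 libraries held brain RNA (levels of brain markers relative to SCN of 8.23%, 18.8% and 8.24%, against at most 0.795% in the other hearts), and library 48 among them had 34.2% mitochondrial counts. SCN markers summed to between 38.4 and 1389 CPM across the SCN libraries. Libraries 1 and 10, both TRF WT, and the 3-digit AL WT CT0 library had the lowest sums (149, 38.4 and 56.8 CPM), and the SCN calls are given without libraries 1 and 10 and, as a choice made after seeing the data, without all 3. The next lowest sum was 164 CPM, close to that of library 1. SCN library 55, of TRF KO CT0, had a chi-square per gene of 22.45 and 21.73 to the others of its group, against 2.86 between those. Its sum of liver markers, 3498 CPM, was the highest in SCN. What sets these sums was not tested.

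The sequences before the start sites of Klf13, Klf15, Klf6 and Klf11 are shown because these had the most calls below among the 7 factors with a sequence window, which are all but Klf10. They run from 250 bases before to 50 bases after the annotated start (RefSeq, GRCm38.p6), 5′ to 3′ on the gene's strand, with E-boxes in capitals. The E-box CACGTG is the element that the Bmal1-Clock dimer binds.
Klf15 (chr6:90462326-90462625, plus strand): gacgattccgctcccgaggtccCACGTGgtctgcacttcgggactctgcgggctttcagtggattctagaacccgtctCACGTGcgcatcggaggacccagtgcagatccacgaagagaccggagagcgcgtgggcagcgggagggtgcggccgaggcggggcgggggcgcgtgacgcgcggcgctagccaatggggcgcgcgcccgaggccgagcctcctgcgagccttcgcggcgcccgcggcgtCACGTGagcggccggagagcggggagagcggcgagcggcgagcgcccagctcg
Klf13 (chr7:63938866-63939165, minus strand): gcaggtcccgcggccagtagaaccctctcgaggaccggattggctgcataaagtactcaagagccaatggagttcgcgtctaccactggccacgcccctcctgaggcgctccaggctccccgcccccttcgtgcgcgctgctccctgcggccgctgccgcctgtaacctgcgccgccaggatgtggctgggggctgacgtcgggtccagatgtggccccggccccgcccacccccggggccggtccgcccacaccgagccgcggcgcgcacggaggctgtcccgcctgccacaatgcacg
Klf6 (chr13:5861239-5861538, plus strand): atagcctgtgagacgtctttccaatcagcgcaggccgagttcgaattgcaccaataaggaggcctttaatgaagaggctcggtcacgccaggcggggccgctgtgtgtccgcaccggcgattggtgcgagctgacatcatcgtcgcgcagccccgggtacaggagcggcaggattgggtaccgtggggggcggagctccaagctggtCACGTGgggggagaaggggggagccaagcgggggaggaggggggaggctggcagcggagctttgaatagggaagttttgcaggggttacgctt
Klf11 (chr12:24651121-24651420, plus strand): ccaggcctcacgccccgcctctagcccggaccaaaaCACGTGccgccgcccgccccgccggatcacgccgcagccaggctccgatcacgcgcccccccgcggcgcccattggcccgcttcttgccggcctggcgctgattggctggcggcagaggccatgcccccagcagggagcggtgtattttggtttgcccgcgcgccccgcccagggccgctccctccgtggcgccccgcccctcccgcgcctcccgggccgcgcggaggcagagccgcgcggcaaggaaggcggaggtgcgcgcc

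Klf15 held 3 E-boxes, starting 228, 172 and 3 bases before the start. At least 3 were found in 0.0883% of 32851 windows of this length, and at least 1 in 7.15%. Klf4, Klf6 and Klf11 held 1 each (182, 43 and 214 bases before the start), and none was found in the windows of Klf2, Klf9 and Klf13. Searched on both strands, CACGTT (4.68% of windows), the D-box TTATGTAA (0.938%), the nuclear receptor half-site AGGTCA (16.3%), the glucocorticoid half-site AGAACA (19%) and the cAMP element TGACGTCA (1.79%) were in none of the 7 windows. The GC box GGGCGG, a letter string that Sp and KLF proteins bind, was in 6 of the 7, all but Klf9, and in 35.7% of all windows. By position no GC box overlapped an E-box, and a match shows letters, not binding.

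Levels of the factors differed between tissues. Per kilobase of exon, Klf15 was the most abundant in liver with a mean of 80.3 ± 20.1 CPM per kilobase (SD, n = 26), followed by Klf9 with 16.1 ± 3.83. In heart Klf2 led with 39.0 ± 10.6, then Klf15 with 29.2 ± 7.43, Klf9 with 21.0 ± 2.71 and Klf4 with 17.2 ± 4.41 (SD, n = 26). In SCN Klf15 (16.0 ± 2.42), Klf9 (14.8 ± 3.40) and Klf13 (14.5 ± 2.18; SD, n = 24) were close. Between tissues, in CPM, Klf15 averaged 224 in liver, 81.5 in heart and 44.7 in SCN. Klf2 averaged 6.64 in liver, 72.1 in heart and 18.1 in SCN, and Klf4 1.30, 52.3 and 11.0. Klf10 averaged 30.5 CPM in liver, 16.5 in heart and 5.63 in SCN. Klf13 was the one with the highest mean in SCN, with 109.5 CPM against 61.4 in liver and 61.5 in heart. Klf6 averaged 4.77, 41.8 and 26.4 CPM, Klf9 77.7, 101.3 and 71.5, and Klf11 15.8, 15.5 and 9.35 in the same order. In bulk tissue, more cells of a type and more RNA per cell cannot be told apart. Klf4 in liver rested on 5 to 50 counts per library, the fewest of any member and tissue.

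The spread of group means was widest for Klf6 and Klf13 in liver. The highest group mean in liver was 3.59 times the lowest for Klf6 and 3.49 times for Klf13, and between 1.42 and 2.60 times for the others. In heart the same ratio ran from 1.26 for Klf13 to 2.27 for Klf11. In SCN it ran from 1.21 for Klf6 to 2.19 for Klf2. The ratio of Klf11 was highest in heart, those of Klf2 and Klf9 in SCN and those of the other 5 genes in liver. When the 8 groups of a tissue were ordered by mean, at least 6 of the 7 neighbouring pairs overlapped for every gene in every tissue, so no full order is resolved.

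**Figure D1:**
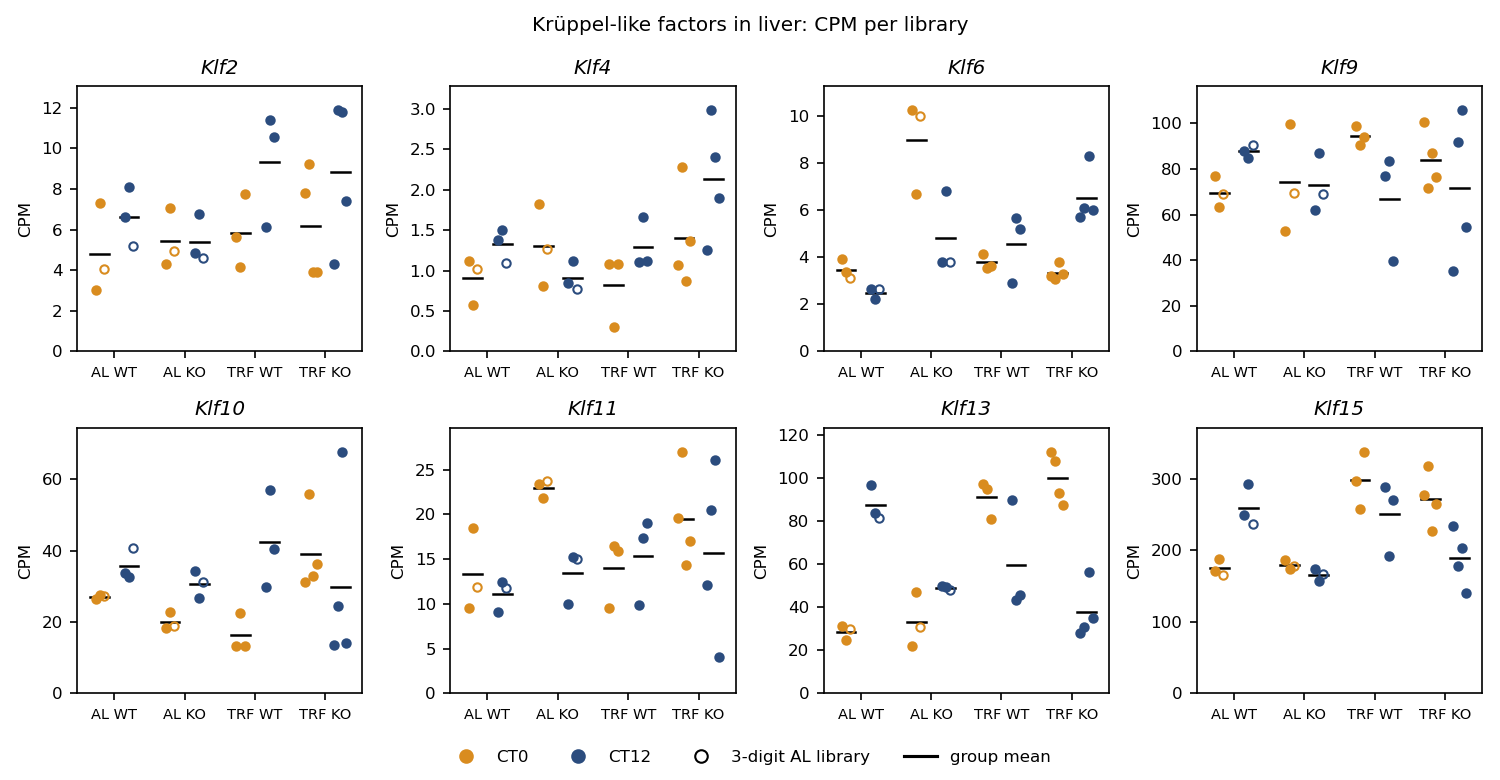
CPM of the 8 factors in each liver library (y axis, linear), by feeding and genotype (x axis), with CT0 in orange, CT12 in blue, bars for group means and open circles for the AL libraries with 3-digit numbers. Klf13 is high at CT12 in AL WT mice and at CT0 in TRF mice, and Klf6 is high at CT0 in AL KO mice.

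The time comparison asks which genes differ between CT12 and CT0 within each feeding and genotype. In liver 6 of 32 member tests passed at an adjusted p (edgeR quasi-likelihood test, Benjamini-Hochberg over all genes) below 0.05, with Klf13 and Klf15 passing in both AL WT and TRF KO mice. Changes are log2 values of CT12 over CT0.

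Klf13, a GC-box factor and close relative of Klf9, had 31.3, 24.9 and 29.8 CPM in AL WT liver at CT0 and 96.7, 83.9 and 81.4 at CT12. The 2 times did not overlap, and Klf13 rose by log2 1.61 (SE 0.27, adjusted p = 0.000452). In AL KO liver it had 22.0, 47.0 and 31.0 CPM at CT0 and 49.8, 49.3 and 48.1 at CT12, a difference of log2 0.56 (SE 0.27, adjusted p = 0.869). All AL KO libraries lay below the AL WT libraries of CT12. Under TRF the order of times was the opposite. In TRF KO liver the values were 112, 108, 92.7 and 87.2 at CT0 and 28.0, 30.9, 56.3 and 35.1 at CT12, without overlap, and Klf13 fell, log2 -1.41 (SE 0.23, adjusted p = 0.000131). In TRF WT liver they were 97.1, 95.0 and 80.8 at CT0 and 89.5, 43.5 and 45.6 at CT12. Here 1 CT12 library, number 10, was as high as those of CT0, and the difference was log2 -0.61 (SE 0.26, adjusted p = 0.0972). Without library 10, singled out after its value was seen, the difference was log2 -1.03 (adjusted p = 0.00485), which is a description.

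Klf15, the regulator of amino acid breakdown, had 171, 188 and 165 CPM at CT0 and 249, 293 and 236 at CT12 in AL WT liver. The 2 times did not overlap and Klf15 rose by log2 0.57 (SE 0.16, adjusted p = 0.0231). In AL KO liver it had 186, 173 and 178 at CT0 and 174, 157 and 167 at CT12, a narrow band with a difference of log2 -0.11 (SE 0.16, adjusted p = 0.997). In TRF KO liver it fell from 277, 317, 227 and 265 to 233, 178, 203 and 141 CPM, log2 -0.52 (SE 0.14, adjusted p = 0.00718), with 1 library of CT12 above the lowest of CT0. In TRF WT liver the values 297, 258 and 337 and 288, 192 and 271 overlapped, with a difference of log2 -0.25 (SE 0.16, adjusted p = 0.268).

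Klf6, the early response factor, had 3.21, 3.07, 3.83 and 3.29 CPM at CT0 and 5.74, 6.09, 8.34 and 6.01 at CT12 in TRF KO liver. All 4 CT12 libraries lay above all of CT0, and Klf6 rose by log2 0.97 (SE 0.21, adjusted p = 0.00155). In AL KO liver it had 10.3, 6.71 and 10.0 at CT0 and 3.79, 6.81 and 3.82 at CT12, a difference of log2 -0.90 (SE 0.23, adjusted p = 0.243). With time in TRF KO liver 1 of 8 macrophage markers rose and none fell (median 0.97). Their sums lay between 82.6 and 198.7 CPM at CT0 and between 93.7 and 366 at CT12. Of 8 endothelial markers 2 rose and none fell (median 0.26), where 22% of all genes passed. The part of these markers in the Klf6 rise was not tested. Klf10, the glucose-linked factor, had 13.2, 22.5 and 13.4 CPM at CT0 and 29.7, 57.0 and 40.4 at CT12 in TRF WT liver and rose by log2 1.37 (SE 0.44, adjusted p = 0.0298). In TRF KO liver its CT12 values were 13.6, 24.4, 67.6 and 14.0, against 31.2, 56.0, 32.9 and 36.3 at CT0. The difference was log2 -0.39 (SE 0.37, adjusted p = 0.508). The highest CT12 value was that of library 30, and it was not among the values flagged as lying apart in the closing section. Without library 30, singled out after this value was seen, Klf10 differed by log2 -1.16 (adjusted p = 0.00163), which is a description.

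The share of all 14397 liver genes tested that passed the same test was 8.99% in AL WT, 0.0139% in AL KO, 23.1% in TRF WT and 22% in TRF KO. Against these, 2 of the 8 factors passed in AL WT, 0 in AL KO, 1 in TRF WT and 3 in TRF KO. In AL KO 2 members and 821 genes had an unadjusted p below 0.05, and DESeq2 called 0 of the members. The AL calls shared their libraries with those of 3-digit number. Without these Klf13 kept log2 1.68 (adjusted p = 0.0193), while Klf15 had log2 0.59 (adjusted p = 0.182). Over its alternatives the adjusted p of Klf15 in AL WT ran from 0.00911 to 0.182, and that of Klf13 from 8.80e-08 to 0.0193. The TRF WT call of Klf10 ran from 0.000706 to 0.113, the TRF KO call of Klf15 from 0.00223 to 0.0609 and that of Klf6 from 0.000234 to 0.00827. The Klf10 call was lost in 6 of its 32 alternatives. Among these was the fit without the 3-digit libraries (log2 1.38, adjusted p = 0.0642).

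The feeding by time comparison tests whether TRF changed the time difference. Within WT liver the time effect of Klf13 was lower under TRF than under AL by log2 -2.22 (SE 0.38, adjusted p = 0.000161), and that of Klf15 by log2 -0.82 (SE 0.22, adjusted p = 0.00877). In KO liver the difference was log2 -1.97 (SE 0.35, adjusted p = 0.000837) for Klf13 and log2 1.87 (SE 0.31, adjusted p = 0.000331) for Klf6. These 4 of 16 tests passed, where 25% of all genes did in WT and 11.1% in KO. All 4 also passed without the 3-digit libraries, with Klf13 at log2 -2.29 (adjusted p = 0.00297) in WT and log2 -1.94 (adjusted p = 0.0207) in KO, Klf15 at log2 -0.84 (adjusted p = 0.0441) and Klf6 at log2 1.64 (adjusted p = 0.0178). Averaged over genotype and time, Klf13 was higher under TRF by log2 0.58 (SE 0.13, adjusted p = 0.00362) and Klf15 by log2 0.38 (SE 0.08, adjusted p = 0.00166), where 19.8% of genes passed. Without the 3-digit libraries these were log2 0.56 (adjusted p = 0.0508) and log2 0.35 (adjusted p = 0.0361). For Klf13 the average covers opposite time differences, so it describes neither time alone.

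**Figure D2:**
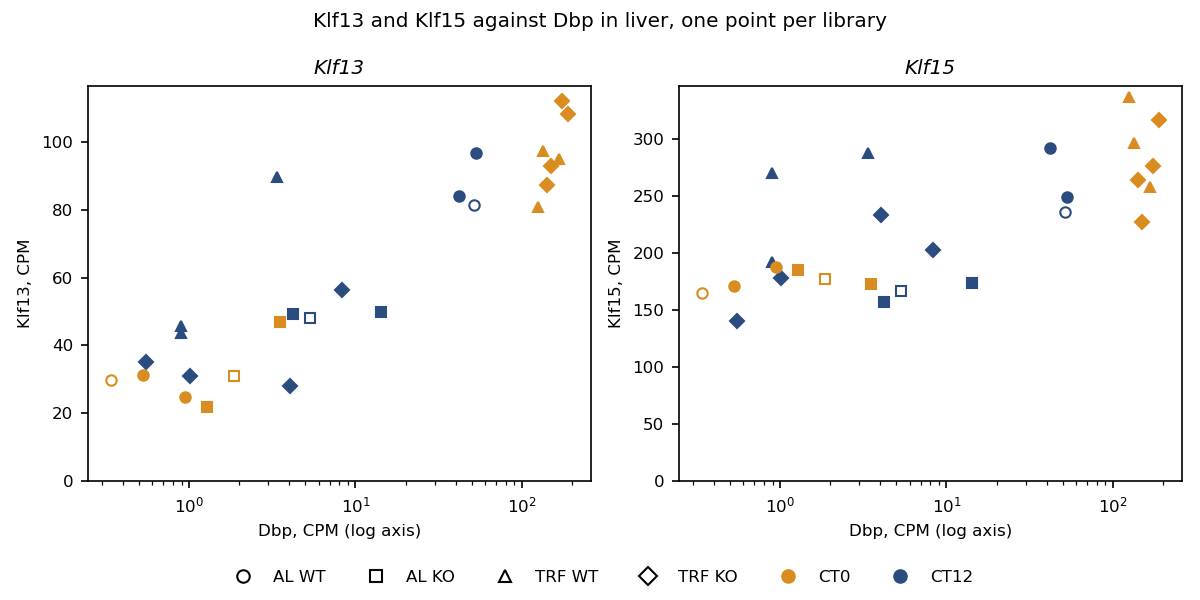
CPM of Klf13 (left) and Klf15 (right) on the y axis against CPM of the clock output gene Dbp (x axis, log scale) in the 26 liver libraries. Shapes mark feeding and genotype, colour marks time and open symbols mark the AL libraries with 3-digit numbers. The libraries of AL WT at CT12 and TRF at CT0, with Dbp between 42.1 and 189.8 CPM, have Klf13 between 80.8 and 111.9 CPM.

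Clock genes of the liver had time differences of opposite sign under the 2 feeding schemes. Arntl, the gene of Bmal1, differed by log2 -3.12 (SE 0.16, adjusted p = 4.87e-12) in AL WT and by log2 3.94 (SE 0.17, adjusted p = 1.14e-13) in TRF WT liver. Of 19 core clock genes 9 rose and 4 fell in AL WT liver, with a median log2 change of 0.95 against -0.01 over all genes. In TRF WT 5 rose and 7 fell (median -0.48), in TRF KO 5 rose and 8 fell (-0.71), and in AL KO none passed (0.54). Of all genes 8.99% passed in AL WT, 23.1% in TRF WT, 22% in TRF KO and 0.0139% in AL KO. Dbp lay between 42.1 and 53.2 CPM at CT12 in AL WT liver and between 0.338 and 0.940 at CT0, and under TRF between 125.2 and 189.8 at CT0 and 0.552 and 8.28 at CT12. In AL KO liver it lay between 1.28 and 14.2 CPM at both times. The plot of Klf13 and Klf15 against Dbp shows every library. Library 10, where Klf13 stayed high at CT12 under TRF, had 3.36 CPM of Dbp.

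Among all liver genes, those whose log2 CPM followed Klf13 most closely over the 26 libraries were Mknk2 (Pearson r 0.926), Usp2 (0.924) and Ciart (0.922), a repressor of the clock. For Klf15 they were Ogdh (0.915), Esrra (0.896) and Rere (0.891), for Klf6 Mug-ps1 (0.841), Pter (0.812) and Stom (0.809), and for Klf11 Igfbp1 (0.854), Ppp1r15a (0.848) and Chkb (0.805). Klf9 was followed by Cish (0.84), Errfi1 (0.833) and Tob1 (0.799), and Klf10 by Bhlhe40 (0.694), Tob2 (0.637) and Mrgbp (0.619). Klf13 and Klf15 correlated at 0.746, and Klf13 and Klf6 at -0.61. These values share libraries, groups and depth and are descriptions.

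Genotype was compared over both times within each feeding. Under AL, Klf6 was higher in KO than in WT liver by log2 1.15 (SE 0.17, adjusted p = 7.22e-05). Its KO values were 10.3, 6.71 and 10.0 CPM at CT0 and 3.79, 6.81 and 3.82 at CT12, against 3.94, 3.40 and 3.11 and 2.65, 2.23 and 2.64 in WT, and within each time KO and WT did not overlap. Without the 3-digit libraries the difference was log2 1.16 (adjusted p = 0.00464). Klf15 differed by log2 -0.31 (SE 0.11, adjusted p = 0.0545) and Klf11 by log2 0.53 (SE 0.30, adjusted p = 0.23). Klf11, a corepressor-recruiting factor, had 23.4, 21.9 and 23.7 CPM in AL KO liver at CT0, all above 9.51, 18.5 and 11.8 in WT. Under AL 1 of 8 members passed, where 20.5% of all genes did. Under TRF none did, where 10.4% of genes passed, with 2 members at an unadjusted p below 0.05 and 0 called by DESeq2.

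Immediate early genes were also higher in AL KO liver: 8 of 14 tested rose and none fell, with a median of 1.44 against 0.01 over all genes. Of all genes 20.5% passed there. Zfp36, which degrades inflammatory mRNAs, rose by log2 1.11 (SE 0.16, adjusted p = 4.15e-05), and Btg2, an antiproliferative gene, by log2 2.26 (SE 0.37, adjusted p = 0.000334). Macrophage markers summed to between 134 and 203.1 CPM in AL KO and between 123.6 and 191.6 in AL WT liver. Their part in the Klf6 result was not tested.

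The genotype by time comparison tests whether the KO changed the time difference. In liver no member passed under either feeding, where 1.56% of genes did under AL and 0.0556% under TRF. Unadjusted p was below 0.05 for 2 members under AL (1645 genes) and 3 under TRF (1384 genes), and DESeq2 called 0 and 0 members. The differences were log2 -1.05 (SE 0.38, adjusted p = 0.216) for Klf13 and log2 -0.68 (SE 0.22, adjusted p = 0.156) for Klf15 under AL, so a loss of their time difference in AL KO liver is not shown. With only the 4 AL groups in the fit Klf15 reached log2 -0.68 (adjusted p = 0.00769). That fit takes its spread from the AL groups alone, each of which holds a 3-digit library that may not be independent. It was not run without these libraries, so its p may be too small and shows no such loss. Under TRF the largest estimate was that of Klf10, log2 -1.76 (SE 0.57, adjusted p = 0.325). It was log2 -2.53 (adjusted p = 0.00275) without library 30, a library singled out after its Klf10 value was seen, so this p is a description.

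Klf2, Klf4, Klf9 and Klf11 passed in no liver comparison. Klf2 had 5.64, 4.17 and 7.73 CPM at CT0 and 6.11, 11.4 and 10.6 at CT12 in TRF WT liver, a difference of log2 0.68 (SE 0.39, adjusted p = 0.219). Endothelial genes linked to Klf2 and Klf4 were higher at CT12 in the same mice, with 10 of 14 rising and none falling (median 0.90 against 0.03 over all genes). Of all genes 23.1% passed there. Pecam1, an endothelial adhesion molecule, rose by log2 1.12 (SE 0.18, adjusted p = 9.43e-05) and Flt1, a receptor of vascular endothelial growth factor, by log2 1.17 (SE 0.20, adjusted p = 0.000214). The list shares 7 of its 15 genes with the endothelial markers, which summed to between 61.3 and 72.5 CPM at CT0 and between 111.5 and 124.9 at CT12. Klf9 ranged from 35.1 to 105.9 CPM over the liver libraries, with 35.1, 91.8, 106 and 54.4 in TRF KO mice at CT12, so that 1 group spanned the whole range. Of 13 glucocorticoid-induced genes 2 rose and 1 fell in AL WT liver, where 8.99% of all genes passed. Under TRF WT 3 rose, where 23.1% of all genes passed. Per1 rose by log2 3.18 (SE 0.52, adjusted p = 0.000526) in AL WT, and Cdkn1a, a cell cycle inhibitor, fell, log2 -3.61 (SE 0.52, adjusted p = 0.00012).

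**Figure D3:**
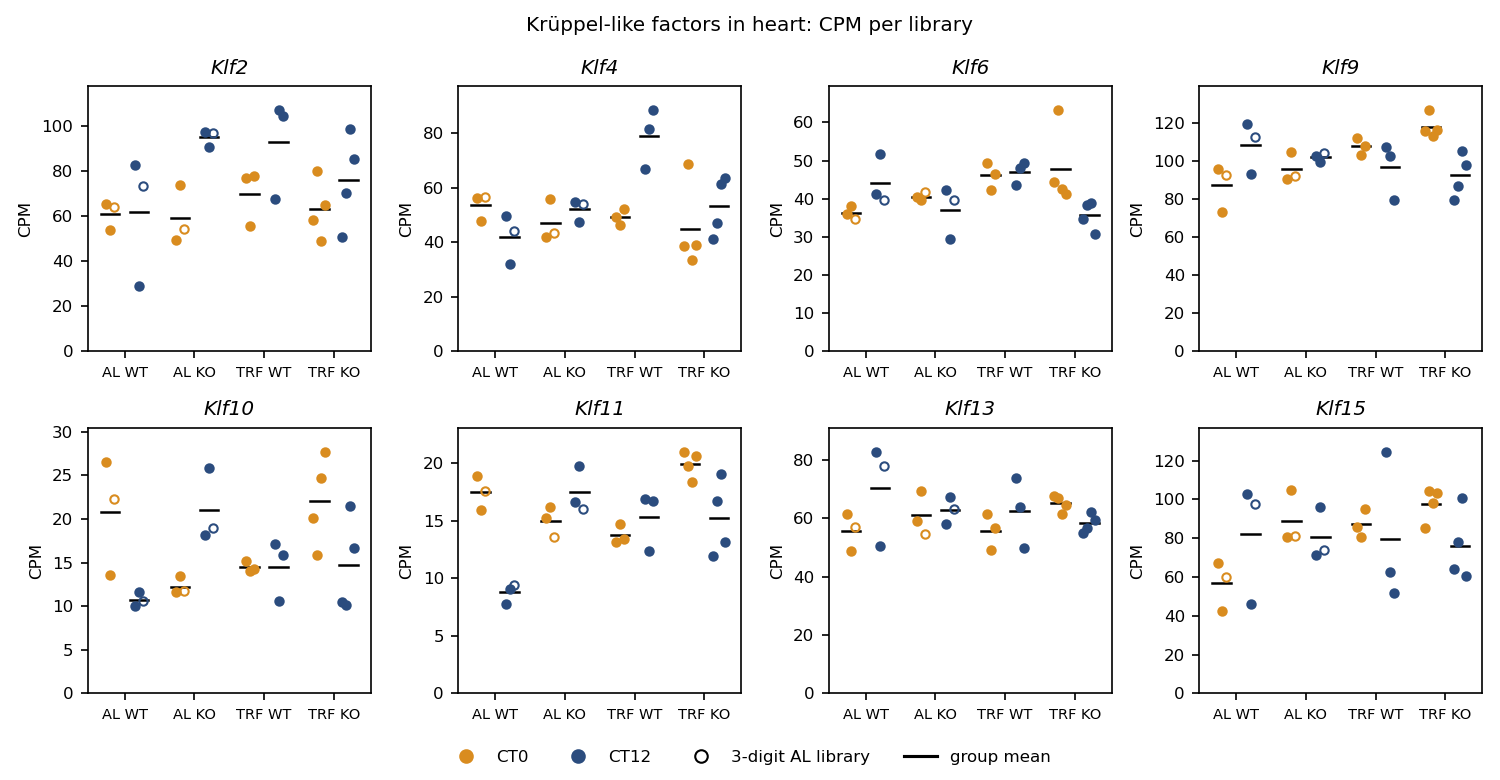
CPM of the 8 factors in each heart library (y axis, linear), by feeding and genotype (x axis), with colours, bars and open circles as in the liver plot. Klf11 is lowest in AL WT mice at CT12, where its 3 libraries lie between 7.76 and 9.44 CPM.

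In heart 3 of 32 member tests passed for time, those of the related pair Klf10 and Klf11 and of Klf9, all in AL WT mice. Of all heart genes 40.3% passed there, and the AL WT CT12 libraries are those with brain RNA. Klf11 had 18.9, 15.9 and 17.5 CPM at CT0 and 7.76, 9.08 and 9.44 at CT12 in AL WT heart. The times did not overlap, all 23 other heart libraries lay above the 3 of AL WT CT12, and Klf11 fell, log2 -0.99 (SE 0.15, adjusted p = 7.81e-06). In AL KO heart it had 15.3, 16.2 and 13.6 at CT0 and 16.6, 19.7 and 16.0 at CT12. Klf10 had 26.5, 13.6 and 22.2 CPM at CT0 and 9.98, 11.7 and 10.6 at CT12 in AL WT heart and fell, log2 -0.95 (SE 0.26, adjusted p = 0.00575). In AL KO heart it had 11.6, 13.4 and 11.7 at CT0 and 18.2, 25.8 and 18.9 at CT12, the opposite order without overlap, with a difference of log2 0.78 (SE 0.26, adjusted p = 0.352). Klf9 rose in AL WT heart from 95.5, 73.4 and 92.4 to 119, 93.0 and 113 CPM, overlapping, by log2 0.31 (SE 0.12, adjusted p = 0.034).

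The genotype by time comparison passed for both factors of the pair under AL, where 28.6% of all genes passed. The time effect in KO exceeded that in WT by log2 1.73 (SE 0.37, adjusted p = 0.00129) for Klf10 and by log2 1.22 (SE 0.21, adjusted p = 9.67e-05) for Klf11. Both passed in all 33 alternatives, and without the 3-digit libraries they were log2 1.70 (adjusted p = 0.0231) and log2 1.26 (adjusted p = 0.00252). Averaged over times, Klf11 was higher in KO than in WT under AL by log2 0.39 (SE 0.10, adjusted p = 0.00929). Without the 3-digit libraries it was log2 0.47 (adjusted p = 0.0287). Under TRF the genotype by time differences were log2 -0.59 (SE 0.35, adjusted p = 0.914) and log2 -0.54 (SE 0.19, adjusted p = 0.721). Over the 26 heart libraries Klf10 and Klf11 correlated at 0.748, and no other gene with a mean of at least 5 CPM followed Klf10 as closely.

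The AL WT CT12 hearts are the libraries with brain RNA, and the background of the AL comparisons is high. Of 16397 heart genes tested 40.3% passed for time in AL WT (3 of 8 members), 0.171% in AL KO, 4.38% in TRF WT and 3.22% in TRF KO (0 members in these 3). For genotype by time it was 28.6% under AL (2 of 8 members) and 0% under TRF (0), and for genotype 18.6% under AL (1 of 8) and 2.76% under TRF (0). Unadjusted p was below 0.05 for 2, 1 and 4 members in the time comparisons without a call, and for 2 members in each of the TRF genotype and genotype by time comparisons. DESeq2 called 0, 1 and 2 members in those time comparisons, 0 in TRF genotype and 0 in TRF genotype by time. At the SCN level of each factor, the brain RNA would add 0.462, 1.05 and 0.463 CPM of Klf10, and 0.768, 1.75 and 0.770 CPM of Klf11, to libraries 47, 48 and the one of 3-digit number, where these factors were low. For Klf9 it would add 5.86, 13.4 and 5.87 CPM, and for Klf13 8.99, 20.5 and 9.00. Heart markers also moved, with 6 of 8 falling and 1 rising with time in AL WT (median -0.43). In genotype by time under AL 4 were higher and 1 lower (median 0.44). The genes that followed Klf11 most closely over the heart libraries were Ifngr2 (r 0.819), the heart marker Myl2 (0.815) and C1qtnf9 (0.806). The part of the brain RNA and of the heart markers in the results was not tested.

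Library 48 moved the heart counts of time calls. Without it Klf13 differed by log2 0.53 (adjusted p = 0.00109) and Klf15 by log2 0.82 (adjusted p = 0.0341) in AL WT heart, against log2 0.34 (SE 0.14, adjusted p = 0.0641) and log2 0.54 (SE 0.29, adjusted p = 0.155) with it. That fit leaves only library 47 and the 3-digit library in AL WT CT12, with a chi-square per gene of 2.96 between them. The pair may not be independent, so the p-values without library 48 may be too small and are descriptions. Klf15 had 67.4, 42.7 and 60.0 CPM at CT0 and 103, 45.9 and 97.5 at CT12, with library 48 inside the range of CT0. Without the 3-digit libraries Klf11 kept its call with log2 -1.04 (adjusted p = 0.000323). Klf10 then had log2 -0.88 (adjusted p = 0.0644) and Klf9 log2 0.34 (adjusted p = 0.0939). Over all alternatives the adjusted p ran from 8.01e-09 to 0.00365 for Klf11, from 0.00112 to 0.0644 for Klf10 and from 0.00655 to 0.18 for Klf9.

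Klf4 stood out under TRF in WT heart. Its values were 49.4, 46.3 and 52.1 CPM at CT0 and 66.8, 81.4 and 88.4 at CT12, with the highest mean of the heart groups, without overlap and with a difference of log2 0.68 (SE 0.21, adjusted p = 0.0689). DESeq2 gave log2 0.68 (adjusted p = 0.0259), and the adjusted p ran from 0.000763 to 0.234 over the alternatives. In AL WT heart Klf4 had 56.1, 47.9 and 56.7 at CT0 and 49.6, 32.1 and 44.0 at CT12. The feeding by time difference in WT passed for Klf4 with log2 1.03 (SE 0.30, adjusted p = 0.0119), for Klf11 with log2 1.15 (SE 0.21, adjusted p = 0.000202) and for Klf9 with log2 -0.47 (SE 0.16, adjusted p = 0.0333). In KO it passed for Klf10 with log2 -1.36 (SE 0.35, adjusted p = 0.044). These are 4 of 16 tests, where 29.9% of all genes passed in WT and 1.65% in KO. The WT comparison includes the AL WT CT12 hearts with brain RNA. In it 6 of 8 endothelial markers were higher and none lower (median 0.55). Of the 15 endothelial genes linked to Klf2 and Klf4, 8 were higher and none lower (median 0.60). The part of these in the Klf4 result was not tested. Without the 3-digit libraries Klf4 had log2 1.02 (adjusted p = 0.0457), Klf11 log2 1.19 (adjusted p = 0.0015), Klf9 log2 -0.49 (adjusted p = 0.0694) and Klf10 log2 -1.40 (adjusted p = 0.225). The call of Klf10 was lost in 23 of its 33 alternatives. Averaged over genotype and time, no member differed by feeding in heart, where 21.9% of genes did. There 2 members had an unadjusted p below 0.05, and DESeq2 called 0.

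Klf2, the other endothelial factor, passed in no heart comparison and ranged from 29.1 CPM in library 48 to 106.9. It followed Id1 (r 0.848), Ppp1r18 (0.775) and Klf4 (0.768) over the heart libraries. Of 15 endothelial genes linked to Klf2 and Klf4, 9 fell and none rose in AL WT heart (median -0.47 against 0.01 over all genes), led by Kdr (log2 -1.21 (SE 0.12, adjusted p = 1.69e-08)) and Cdh5 (log2 -0.61 (SE 0.10, adjusted p = 1.47e-05)). Endothelial markers summed to between 1260 and 1364 CPM at CT0 and between 625.3 and 986.3 at CT12 there, where 40.3% of all genes passed. Klf6 ranged from 29.5 to 63.2 CPM in heart and passed in no comparison. Klf13 and Klf15 passed in none either, and Klf15 followed Pim3 (0.845) and Klf9 (0.758), which followed Adh1 (0.847) and Per1 (0.84).

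Genes linked to Klf15 and Klf10 were examined in the same comparisons, and Klf15 itself passed in none of those in heart. Of 15 genes linked to Klf15, 6 fell and none rose with time in AL WT heart (median -0.41 against 0.01 over all genes), the share at which all genes passed (40.3%). Of the same 15, 6 had a higher time effect in AL KO than in AL WT (median 0.65 against -0.02), where 28.6% of all genes passed. Heart markers moved in the same direction, with 6 of 8 falling and 1 rising with time in AL WT (median -0.43) and 4 higher and 1 lower in the genotype by time comparison (median 0.44). They summed to between 67680 and 70150 CPM at CT0 and between 40120 and 61720 at CT12 in AL WT, and their part in these counts was not tested. Kcnip2, whose rhythm Klf15 is known to drive, fell, log2 -0.65 (SE 0.09, adjusted p = 5.66e-06), and Bckdhb, of branched-chain amino acid breakdown, fell, log2 -0.54 (SE 0.10, adjusted p = 9.17e-05). Of 12 genes linked to Klf10, 6 fell and none rose with time in AL WT heart (median -0.72), and 5 had a higher and 1 a lower time effect in AL KO. Pdk4, which restrains glucose oxidation, fell, log2 -1.14 (SE 0.28, adjusted p = 0.00215). In liver 1 of 13 genes linked to Klf15 fell in AL WT, 1 rose and 3 fell in TRF WT, and 4 fell in TRF KO. Of 12 genes linked to Klf10 3 rose in AL WT, 2 rose and 3 fell in TRF WT, and 2 rose and 5 fell in TRF KO. Of all liver genes 8.99%, 23.1% and 22% passed in the same order.

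**Figure D4:**
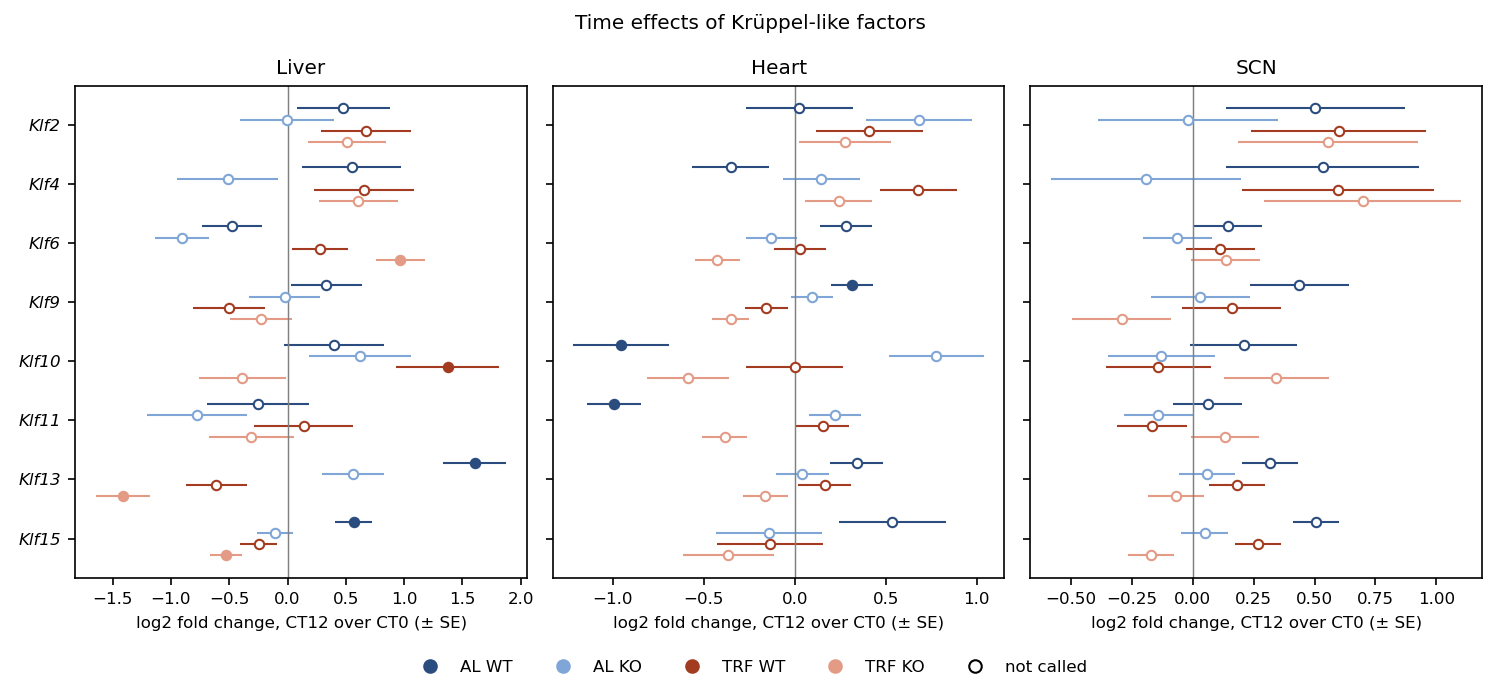
Log2 fold change of CT12 over CT0 (x axis) with its SE for each factor (rows) in liver, heart and SCN, coloured by feeding and genotype. Filled points passed an adjusted p of 0.05 and open points did not. The filled points are 6 in liver, 3 in heart and 0 in SCN, and the x axes differ in range. Of all genes 0.0139% to 23.1% passed in the liver comparisons, 0.171% to 40.3% in heart and 0% to 0.0276% in SCN. The counts therefore do not compare the tissues.

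A direct test of the time effect between heart and liver passed for 3 of 32 member tests. In AL WT mice that of Klf13 was lower in heart than in liver by log2 -1.33 (SE 0.31, adjusted p = 0.00179). In TRF KO mice it was higher in heart by log2 1.26 (SE 0.27, adjusted p = 0.00137), and that of Klf6 was lower by log2 -1.38 (SE 0.24, adjusted p = 6.47e-05). Over all 17656 genes in the joint fit 17.6% passed in AL WT, 0.00566% in AL KO, 11.4% in TRF WT and 9.84% in TRF KO. In AL KO and TRF WT no member passed, 2 members in each had an unadjusted p below 0.05 (834 and 4276 genes), and no other tool was run on the joint fit. All 3 calls held in each of the 56 alternatives, with Klf13 in AL WT at log2 -1.47 (adjusted p = 0.0201) without the 3-digit libraries. The median of all genes in these comparisons lay between -0.09 and 0.01. Klf10 in AL WT differed by log2 -1.42 (SE 0.52, adjusted p = 0.0557), with a time difference of log2 0.40 (SE 0.43, adjusted p = 0.649) in liver and a fall in heart.

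**Figure D5:**
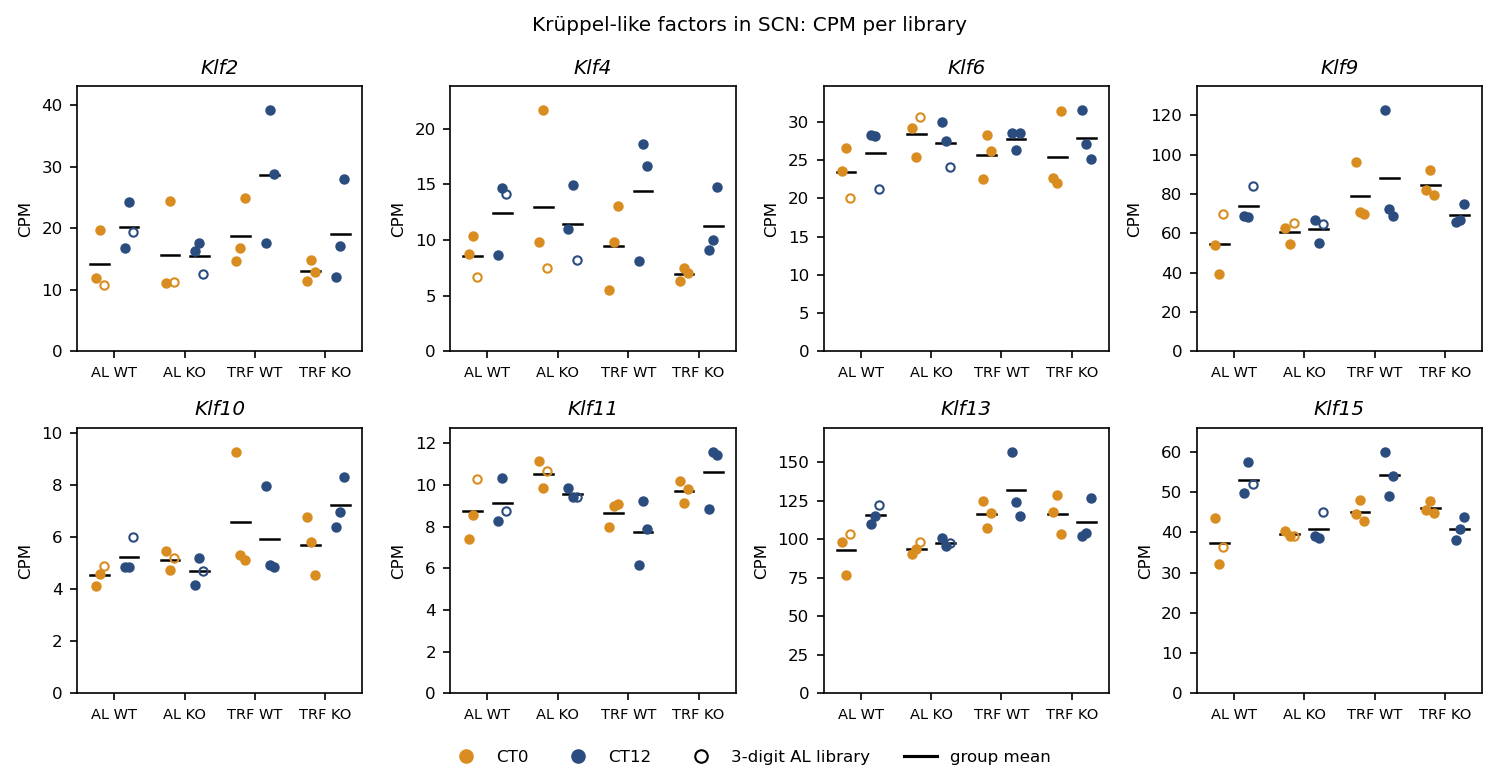
CPM of the 8 factors in each SCN library (y axis, linear), by feeding and genotype (x axis), with colours, bars and open circles as in the liver plot. Klf9, Klf10 and Klf13 are higher under TRF on average, with libraries 1 and 10 the highest in the TRF WT groups for Klf9, Klf10 and Klf13.

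In SCN no member passed for time. The nearest was Klf15 in AL WT mice, with 43.7, 32.2 and 36.4 CPM at CT0 and 49.9, 57.4 and 52.1 at CT12. The times did not overlap and the difference was log2 0.50 (SE 0.10, adjusted p = 0.085). It was log2 0.50 (adjusted p = 0.00206) with DESeq2, and the adjusted p ran from 0.00206 to 0.689 over the alternatives. In AL KO mice Klf15 had 40.3, 39.2 and 39.2 at CT0 and 39.0, 38.5 and 45.0 at CT12. Few SCN genes passed at all: 0.0276% of 18133 in AL WT, 0% in AL KO, 0.0165% in TRF WT and 0% in TRF KO. Unadjusted p was below 0.05 for 3, 0, 1 and 0 members and for 805, 369, 2127 and 1139 genes in the same order, and DESeq2 called 1 member (Klf15 in AL WT) over the 4 comparisons. Per3, a core clock gene, was higher at CT12 in AL WT SCN, log2 0.48 (SE 0.08, adjusted p = 0.0255), the 1 of 19 core clock genes to pass.

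Genotype passed for no member in SCN, where 0% of genes passed under AL and 0.00551% under TRF, nor did genotype by time (0% under AL and 0% under TRF) or feeding by time (0% in WT and 0% in KO). The members with an unadjusted p below 0.05 were 1 and 3 for genotype, 1 and 1 for genotype by time, and 0 and 0 for feeding by time. DESeq2 called 0, 0, 0, 0, 0 and 0 members.

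Feeding was the comparison that passed in SCN. Averaged over genotype and time, Klf13 was higher under TRF by log2 0.25 (SE 0.06, adjusted p = 0.00817), Klf9 by log2 0.36 (SE 0.10, adjusted p = 0.0258) and Klf10 by log2 0.37 (SE 0.11, adjusted p = 0.0259), so 3 of 8 members passed where 16.3% of genes did. Klf13 ranged from 76.9 to 122 CPM in the 12 AL libraries, and its TRF values were 125, 107 and 117, 156, 124 and 115, 117, 129 and 103 and 102, 104 and 127 in the 4 groups. Feeding groups overlapped for all 3 genes. Macrophage markers were also higher under TRF, with 5 of 5 tested rising (median 0.32 against -0.01 over all genes), and summed to between 166.4 and 235.6 CPM in AL and between 163.6 and 259.3 in TRF libraries. Of 18 brain markers 8 rose and 2 fell (median 0.17), with sums between 16170 and 19020 CPM in AL and between 17210 and 21420 in TRF. SCN markers had 0 calls of 8. The part of these markers in the feeding result was not tested. Without libraries 1 and 10 Klf13 had log2 0.21 (adjusted p = 0.0233), Klf9 log2 0.24 (adjusted p = 0.0582) and Klf10 log2 0.22 (adjusted p = 0.086). Without the 3 libraries of lowest SCN markers Klf13 had log2 0.23 (adjusted p = 0.00778), Klf9 log2 0.30 (adjusted p = 0.00471) and Klf10 log2 0.24 (adjusted p = 0.0624). Over all alternatives the adjusted p ran from 0.000775 to 0.0233 for Klf13, from 0.00299 to 0.0582 for Klf9 and from 0.0123 to 0.086 for Klf10. Klf9 and Klf13 correlated at 0.905 over the 24 SCN libraries, and Klf13 and Klf15 at 0.776. The genes that followed Klf2 most closely were Cyr61 (0.93) and Zfp36 (0.85), and those of Klf4 were Dusp1 (0.908) and Btg2 (0.885).

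Relatives outside the 8 genes were measured as a further list of 18 KLF and Sp genes, of which 10 were tested in liver, 11 in heart and 15 in SCN. In liver Klf16 rose with time in AL WT, log2 1.14 (SE 0.21, adjusted p = 0.00076), and fell in TRF WT, log2 -0.81 (SE 0.20, adjusted p = 0.00458). Klf1, the erythroid factor, did the same, log2 0.84 (SE 0.24, adjusted p = 0.027) and log2 -1.69 (SE 0.22, adjusted p = 9.45e-06). They were the 2 of 10 to rise in AL WT and 2 of the 3 to fall in TRF WT, where 1 rose. Of all liver genes 8.99% passed in AL WT and 23.1% in TRF WT. In AL KO against AL WT liver 4 of 10 were higher, where 20.5% of all genes passed, with Sp1 at log2 0.54 (SE 0.08, adjusted p = 9.63e-05). In SCN 8 of 15 were higher under TRF and none lower (median 0.18 against -0.01 over all genes), among them Sp7 and Sp9 with log2 0.56 (SE 0.13, adjusted p = 0.0101) and log2 0.64 (SE 0.15, adjusted p = 0.0118). Of all SCN genes 16.3% passed. In heart 3 of 11 rose with time in AL WT and none fell, where 40.3% of all genes passed. They were led by Sp9 (log2 5.50 (SE 0.89, adjusted p = 0.000332)) and Klf5 (log2 2.43 (SE 0.68, adjusted p = 0.00613)), in the libraries with brain RNA, whose part was not tested.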

How the data were processed

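RNA was extracted with TRIzol and libraries were made with the NEBNext Ultra II RNA kit, per the labels' protocols. The submitters' processing notes name FastQC 0.11.8, STAR and the build mm10 (GRCm38); the counting program, its strand setting and the annotation are not given in the sources used here. The deposited values are whole-number counts of reads, unnormalized, in a single table of 38129 entries by 76 libraries, and 99.8% of entries matched GENCODE vM21 by Ensembl gene ID for positions and exon lengths. No exon of a member overlaps another annotated gene; introns of Klf13 hold 2 genes on the opposite strand and an intron of Klf9 holds Mir1192. Columns were assigned to samples by the library names in the labels.

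Counts were tested per tissue with edgeR 4.0.16 in R 4.3.3 (TMM scaling, filterByExpr over the 8 groups, robust quasi-likelihood F test, 1 fit over all groups), with Benjamini-Hochberg adjustment over all genes within a contrast and calls below 0.05. An SE is the log2 change divided by the square root of F. Heart and liver were fitted jointly for the comparison of their time effects. CPM are TMM-scaled; group means with TMM were 0.915 to 1.04 times those with library totals. Likeness is the Pearson r of log2(CPM + 0.5) among genes averaging 5 CPM or more, predicted genes left out. The brain share is the summed brain markers of a library relative to the SCN mean. All 8 members were tested in every comparison, and a member not named in a comparison did not pass there. From other lists up to 2 genes with the smallest adjusted p are named. DESeq2 1.42.0 and the other alternatives are given in the closing section. The scripts were tested on simulated counts. The members and gene lists were chosen with earlier results of these data known, so counts over a list describe it and support nothing by themselves. Shared library numbers between heart and liver are not said to mark 1 mouse. Deviations of libraries with the same number correlated at -0.521 to 0.375 (above 0.1 in 11 of 26 pairs), so they were not treated as pairs.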

Additional observations from a re-analysis of the deposited data

Results flagged for a closer look

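3 values lay apart from the other 3 libraries of their group, out of 32 gene and group combinations with 4 libraries that were examined. Chance flags about 1 in 20 such groups. Klf4 and Klf6 were highest in library 21 of TRF KO heart at CT0, with 68.8 CPM of Klf4 and 63.2 CPM of Klf6. Klf6 was highest in library 30 of TRF KO liver at CT12, with 8.34 CPM, the library that also held the highest Klf10 level of the liver.

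Tests of the difference in time effect by feeding, genotype or tissue passed 13 times. They were 4 of 16 for feeding by time in liver and 4 of 16 in heart, 2 of 16 for genotype by time in heart and 3 of 32 between tissues. Of all genes 25% passed for feeding by time in WT liver and 11.1% in KO liver, and 29.9% and 1.65% in heart. The share was 28.6% for genotype by time under AL in heart, and 17.6% in AL WT and 9.84% in TRF KO between tissues. In liver the feeding by time difference on the log2 scale was -2.22 for Klf13 and -0.82 for Klf15 in WT, and -1.97 for Klf13 and 1.87 for Klf6 in KO. In heart it was 1.15 for Klf11, 1.03 for Klf4 and -0.47 for Klf9 in WT, and -1.36 for Klf10 in KO. The genotype by time difference under AL in heart was 1.73 for Klf10 and 1.22 for Klf11. Between heart and liver the time effects differed by -1.33 for Klf13 in AL WT mice, and by 1.26 for Klf13 and -1.38 for Klf6 in TRF KO mice. All AL WT values of heart include the CT12 libraries with brain RNA, whose part was not tested.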

How the results depend on the processing

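Of the 29 calls on the 8 genes, none changed sign under any alternative, and 22 were kept without the 3-digit AL libraries. Counts of calls moved by over 1.5 times as follows. For liver genotype the count of 1 became 2 without the filter, 2 with DESeq2, 4 with the compared groups only and 2 without libraries 55 and 64, and for liver genotype by time the count of 0 became 1 with the compared groups only. Liver feeding went from 2 to 1 and heart feeding by time from 4 to 2 without the 3-digit libraries. Heart time, with 3, became 5 with RLE scaling, 7 with DESeq2, 5 with the compared groups only, 1 without the 3-digit libraries and 8 without library 48, and heart feeding went from 0 to 1 without library 48. Without library 48 the AL WT CT12 hearts are a close pair that may not be independent, so those counts are descriptions. SCN time went from 0 to 1 without the filter and to 1 with DESeq2, and SCN feeding from 3 to 1 without libraries 1 and 10 and to 2 without the 3 SCN libraries of lowest SCN markers, an alternative chosen after seeing the data. Leaving out each library in turn gave 1 to 4 calls for liver genotype (2 without 10, 64 or the 3-digit AL WT CT12 library, 3 without 11, 4 without 28), 0 to 1 for liver genotype by time (1 without 30), 2 to 6 for heart feeding by time (2 without 1, 2, 12, 47 or the 3-digit AL WT CT12 library), 1 to 2 for heart genotype (2 without 21), 2 to 8 for heart time (5 without 10 or 12, 6 without 30, 8 without 48), 0 to 1 for heart feeding (1 without 11, 28 or 48), 0 to 1 for SCN time (1 without 38) and 3 to 5 for the joint comparison (5 without liver 30). With the library number shared by heart and liver as a replicate block, the joint comparison gave 5 calls in place of 3, adding Klf13 in TRF WT (log2 0.81 (adjusted p = 0.0228)) and Klf10 in AL WT (log2 -1.37 (adjusted p = 0.0463)); the numbers are not said to pair mice. No paired analysis was possible within a tissue because its groups share no library number. The cause of these changes was not tested. Depth limits Klf4 and Klf6 in liver, which rest on as few as 5 and 40 counts per library.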
